A study of Mus musculus with 9 samples.

Results

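Mitochondrial ribosomal protein genes were examined in RNA from mouse lung endothelial cells of 2 genotypes. The members are the genes whose symbol begins with Mrpl or Mrps followed by a digit, and 69 of the 9277 genes in the table met that rule. The RNA came from 4 libraries of mice with the normal Tie1 receptor (Tie1-WT) and 5 libraries of mice whose Tie1 is cleavage resistant (Tie1-CR), meaning that proteases do not cut it. Tie1 is an endothelial receptor whose extracellular part is shed during inflammation. Every library name carries PBS, so no inflamed sample is analysed here. The comparison asks how lung endothelial transcripts differ when Tie1 resists cleavage. The sources used here do not give the age, sex or strain of the mice, how the Tie1 change was made, or how the cells were isolated. Nor do they say whether libraries are from different animals, and p-values then reflect only the spread among these libraries, which may be technical. In bulk RNA, fewer cells of a type and less RNA per cell cannot be told apart.

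Mitochondria keep ribosomes of their own, which translate the few proteins encoded by mitochondrial DNA, all of them core subunits of the respiratory chain and ATP synthase. The ribosomal RNAs of these mitoribosomes come from mitochondrial DNA, whereas every mitoribosomal protein is encoded in the nucleus, translated in the cytosol and imported. Some of these proteins descend from bacterial ribosomal proteins and others are found only in mitochondrial ribosomes. Lung endothelial cells draw much of their ATP from glycolysis, and their mitochondria are known mainly for biosynthetic and signalling roles.

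In Tie1-CR, 0 of the 69 genes were higher and 0 were lower (limma across all genes, Benjamini-Hochberg adjusted p below 0.05), against 4.05% of all genes tested (1.28% higher and 2.77% lower). Without adjustment, 4 members (5.80%) had p below 0.05 in the limma fit, against 22.3% of all genes. The median difference of the members was -0.03 on the scale of log2(CPM + 1), where CPM is the read count scaled to library size, and the median of all genes was also -0.03. Differences of the members ran from -0.18 to 0.14 log2. None reached 0.2 log2 in size, a size reached by 14.6% of all genes. The median was -0.04 log2 for the 47 large subunit genes and -0.02 log2 for the 22 small subunit genes.

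The intervals of the single genes were narrow. The 95% confidence intervals of all 69 differences lay between -0.41 log2 (the lower bound for Mrps18c) and 0.33 log2 (the upper bound for Mrps34). Every member's interval therefore lay within 0.5 log2 of zero, a 1.41-fold change of CPM + 1, which held for 92.5% of all genes. For 41 members (59.4%) the interval lay within 0.25 log2, a 1.19-fold change of CPM + 1, against 51.6% of all genes. For genes of low level, the same bounds stand for larger fold changes of CPM itself. These intervals are for single genes and are not adjusted for the number of members. The median standard error was 0.08 log2 for the members and 0.07 for all genes.

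**Figure D1:**
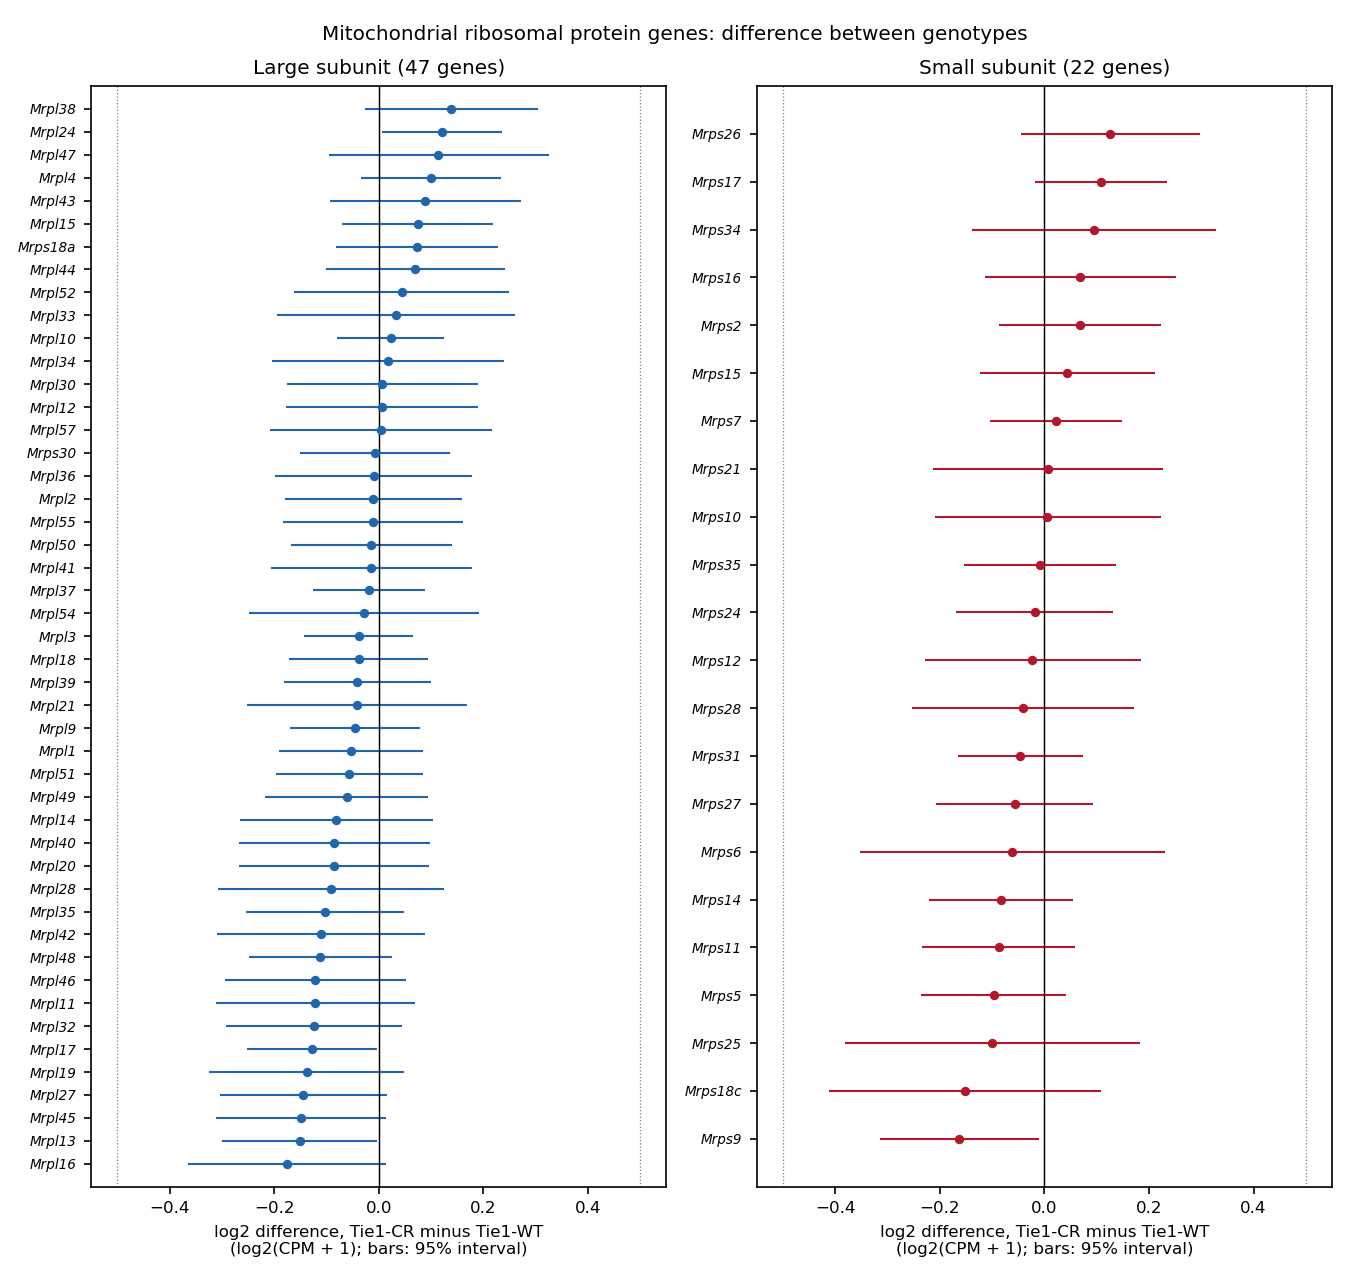
Difference of each of the 69 genes between Tie1-CR (n = 5) and Tie1-WT (n = 4), on the log2(CPM + 1) scale, with its 95% confidence interval from limma; 47 large subunit genes are on the left and 22 small subunit genes on the right. All intervals lie inside the dotted lines at -0.5 and 0.5, and 0 of the genes pass the adjusted threshold.

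The endothelial label was met by its markers. All 8 endothelial markers of the list were in the table, with a summed level of 12900 to 14800 CPM, while markers of other cell types, 16 of 41 in the table, summed to 380 to 867 CPM in Tie1-WT, against 627 to 1060 CPM in Tie1-CR. Past the threshold (limma), 1 of the 8 endothelial markers was lower in Tie1-CR. Of the 16 other markers, 2 were higher (1 type 2 pneumocyte and 1 airway) and 1 was lower (macrophage and monocyte). That is a larger share than among all genes, where 4.05% passed. None of the listed pan-leukocyte, neutrophil or lymphocyte markers was in the table. Reads per library ran from 38208696 to 54408116, and the members took 0.146% to 0.170% of them. A member was read 273 to 5648 times in a library, a counting error of 6.05% to 1.33% if reads are independent. The table holds only genes that reach at least 10.0 CPM in some library. Mrps18c and Mrpl19 reached it only in Tie1-WT (highest Tie1-CR values 9.15 and 9.5 CPM). Mrpl47 reached it only in Tie1-CR (highest Tie1-WT value 9.79 CPM). Entry to the table thus favoured the sign of these genes' differences, also in the counts above and below 0. RefSeq has 78 protein-coding symbols of this pattern, and 9 of them (Mrpl22, Mrpl23, Mrpl53, Mrpl58, Mrps18b, Mrps22, Mrps23, Mrps33 and Mrps36) are not analysed here under those names. Mrpl58 appears under its older symbol Ict1 and is described with the related genes. All 69 members passed the filter on low values.

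Large subunit proteins with bacterial relatives, 28 genes, include some near the peptide-bond centre and exit tunnel, and the stalk that recruits translation factors. Their median difference was -0.04 log2, with 9 members above 0 and 19 below. Mrpl4, whose product lines the exit tunnel, was the most abundant member. It measured 85.3, 90.2, 90.6 and 94.0 CPM in the Tie1-WT libraries and 104, 101, 84.7, 98.5 and 95.3 CPM in the Tie1-CR libraries. The highest and the lowest of these values were both Tie1-CR libraries, and the difference was 0.10 log2 (95% interval -0.03 to 0.23; limma adjusted p = 0.358). Mrpl24, another protein near the tunnel exit, had 35.3, 31.8, 34.5 and 32.3 CPM in Tie1-WT, against 36.8, 37.9, 33.8, 37.3 and 36.6 CPM in Tie1-CR. Only the third Tie1-CR library lay among the Tie1-WT values, and the difference of 0.12 log2 did not pass (SE 0.05; limma adjusted p = 0.204, unadjusted p = 0.0414).

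The members of this class with the smallest p on the lower side were Mrpl13 and Mrpl17, both structural proteins that contact the ribosomal RNA. Mrpl13 had 19.0, 18.9, 18.3 and 20.7 CPM in Tie1-WT, against 19.3, 17.6, 16.2, 17.0 and 16.2 CPM in Tie1-CR, a difference of -0.15 log2 (SE 0.07; limma adjusted p = 0.216). The first Tie1-CR library lay inside the Tie1-WT range and the other Tie1-CR libraries below it. Mrpl17 measured 53.9 ± 2.34 CPM (SD, n = 4) in Tie1-WT and 49.3 ± 3.25 CPM (SD, n = 5) in Tie1-CR, a difference of -0.13 log2 (limma adjusted p = 0.217). Mrpl16, which sits near the peptide-bond centre, had the lowest difference of all members, at -0.18 log2. Its levels were 11.8 ± 1.12 and 10.3 ± 0.795 CPM (limma adjusted p = 0.256), and the genotypes overlapped. The stalk genes Mrpl10 and Mrpl12 differed by 0.02 and 0.01 log2, named here for their role and not by their values. Mrpl10 had the narrowest error of all members, with 31.5 ± 0.223 CPM in Tie1-WT, against 32.0 ± 1.28 CPM in Tie1-CR.

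Among the 19 large subunit genes classed as mitochondria-specific, 6 lay above 0 and 13 below, with a median of -0.02 log2. Mrps18a, although related to a bacterial small subunit protein, and Mrps30 are counted here, because their products sit in the large subunit. Mrpl38, a protein of the central protuberance, had the highest difference of all members, at 0.14 log2. It measured 41.4, 40.1, 48.0 and 43.6 CPM in Tie1-WT, against 55.3, 44.6, 43.5, 47.1 and 48.6 CPM in Tie1-CR. Of the 5 Tie1-CR libraries, 3 lay within the Tie1-WT range, and the first was the highest of all (limma adjusted p = 0.303). Without that library the difference was 0.09 log2. Mrps18a had 47.9 ± 2.94 and 50.6 ± 4.64 CPM, and Mrpl52 15.9 ± 1.99 and 16.4 ± 1.53 CPM.

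Small subunit proteins with bacterial relatives, 16 genes, include some near the path of the messenger RNA and the decoding centre. The median was -0.02 log2, with 7 above 0 and 9 below. Mrps9, whose tail reaches toward the tRNA in the peptidyl site, had the smallest adjusted p of all members (limma adjusted p = 0.192). Its levels were 19.5, 18.3, 20.6 and 18.8 CPM in Tie1-WT, against 18.1, 18.0, 15.0, 17.1 and 17.6 CPM in Tie1-CR. Every Tie1-CR library lay below every Tie1-WT library, with 18.1 and 18.3 CPM as the nearest values, and the difference was -0.16 log2 (95% interval -0.31 to -0.01). It was the only member whose groups did not overlap, 1.45% of the members. Over all genes the share was 10.5%, with 3.74% higher and 6.74% lower in Tie1-CR.

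Mrps17, a small subunit protein that binds ribosomal RNA, measured 35.8, 36.9, 40.0 and 39.0 CPM in Tie1-WT, against 45.3, 41.6, 38.5, 39.7 and 39.9 CPM in Tie1-CR, a difference of 0.11 log2 (limma adjusted p = 0.293). Mrps5, a protein at the messenger RNA entry, had 21.4 ± 1.09 and 20.0 ± 1.30 CPM, a difference of -0.10 log2. Mrps24, also at the messenger RNA entry, had 38.3 ± 0.977 and 38.0 ± 3.57 CPM. Mrps12, a decoding centre protein named for its role, differed by -0.02 log2. Mrps18c was the least abundant member in CPM, with 8.55, 6.80, 9.21 and 10.3 CPM in Tie1-WT, against 9.15, 7.41, 7.58, 7.10 and 7.25 CPM in Tie1-CR. Its difference of -0.15 log2 had an SE of 0.12 (limma adjusted p = 0.476), and it ran from -0.25 log2 without Tie1-WT replicate 2 to -0.08 log2 without Tie1-WT replicate 4. After the GC and length correction it was -0.03 log2. An exon of a predicted gene overlaps 23.2% of the exon bases of Mrps18c, so its level is uncertain.

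The 6 small subunit genes classed as mitochondria-specific had a median of -0.03 log2, with 2 above 0 and 4 below. Mrps26 had 36.9, 33.4, 37.6 and 42.1 CPM in Tie1-WT, against 41.1, 44.2, 36.8, 44.9 and 38.0 CPM in Tie1-CR, a difference of 0.13 log2 whose groups overlapped (limma adjusted p = 0.364). Without Tie1-WT replicate 2 it was 0.07 log2. Mrps35 was nearly level, at 13.0 ± 0.783 and 12.9 ± 0.453 CPM. Mrps25 and Mrps34 share 69.8% and 63.4% of their exon bases with a gene on the opposite strand (Nr2c2 for Mrps25), and Mrps34 shares 37.0% with a gene on its own strand. The strand setting of the counting is not given, so their levels are uncertain. In all, 8 members share at least 20% of their exon bases with another gene, among them Mrpl19 (36.0%), Mrpl43 (33.4%), Mrpl24 (26.3%), Mrpl47 (24.2%) and Mrps27 (24.2%), and the same limit holds for them.

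**Figure D2:**
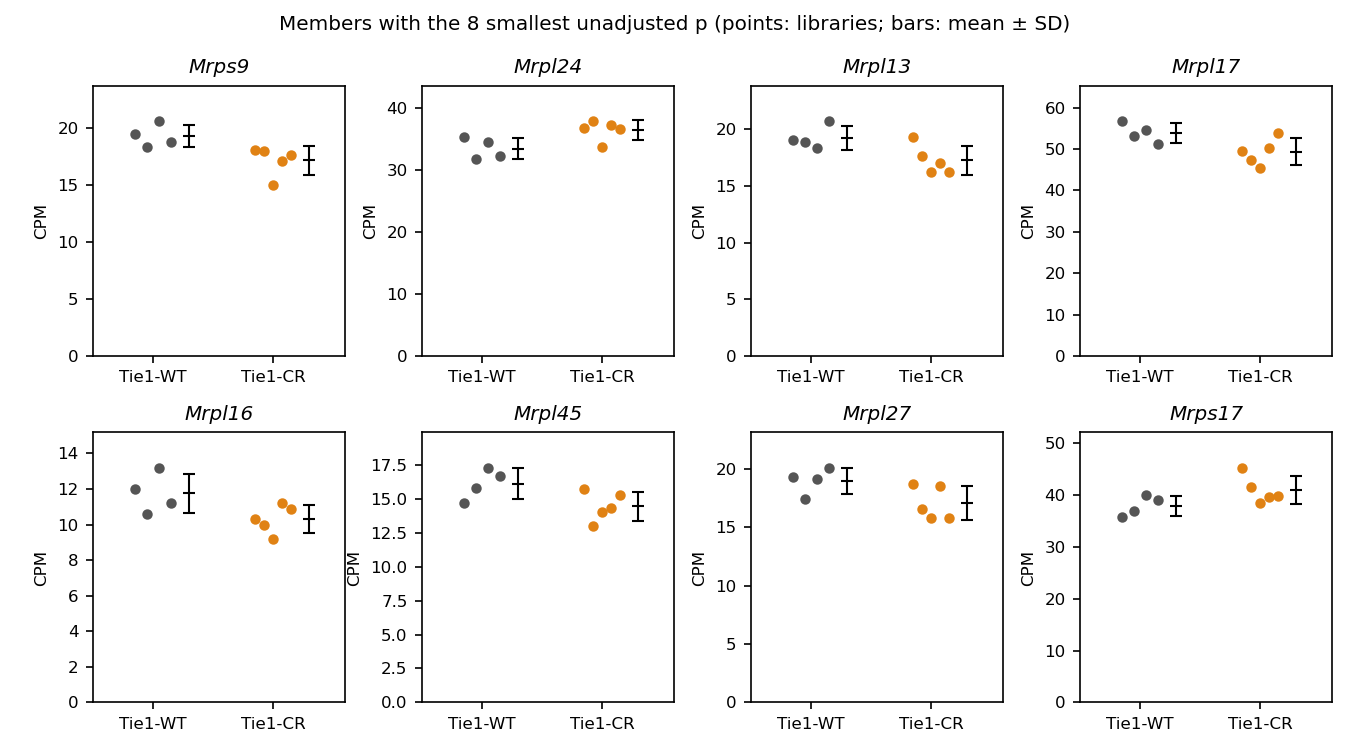
CPM of the 8 members with the smallest unadjusted p in each library (points), with the mean and SD of each genotype (bars; Tie1-WT n = 4, Tie1-CR n = 5). Mrps9 is the only one whose genotypes do not overlap, from 15.0 to 18.1 CPM in Tie1-CR and from 18.3 to 20.6 CPM in Tie1-WT.

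The differences of the members were spread less widely than those of all genes. The middle 50% of members (the quartiles) lay between -0.09 and 0.02 log2, and that of all genes between -0.11 and 0.06 log2. Of the 69 members, 24 lay above 0 and 45 below. That split was not stable. It moved with the scaling, as 34 lay above 0 with TMM scaling and 40 with quantile normalization or after correction for GC content and transcript length. It also moved with single libraries: 14 lay above 0 without Tie1-WT replicate 2, and 17 or 35 when the first or the third Tie1-CR library was left out. With those 3 scalings and corrections in turn, the median of the members was -0.005, 0.015 and 0.022 log2, and that of all genes -0.002, 0.002 and 0.009 log2. The members' median therefore had no fixed sign, and in every one of the 22 alternatives it lay within 0.03 log2 of the median of all genes. In none of the 22 did a member pass, and the smallest adjusted p was 0.0619, for Mrpl24 after the GC and length correction.

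**Figure D3:**
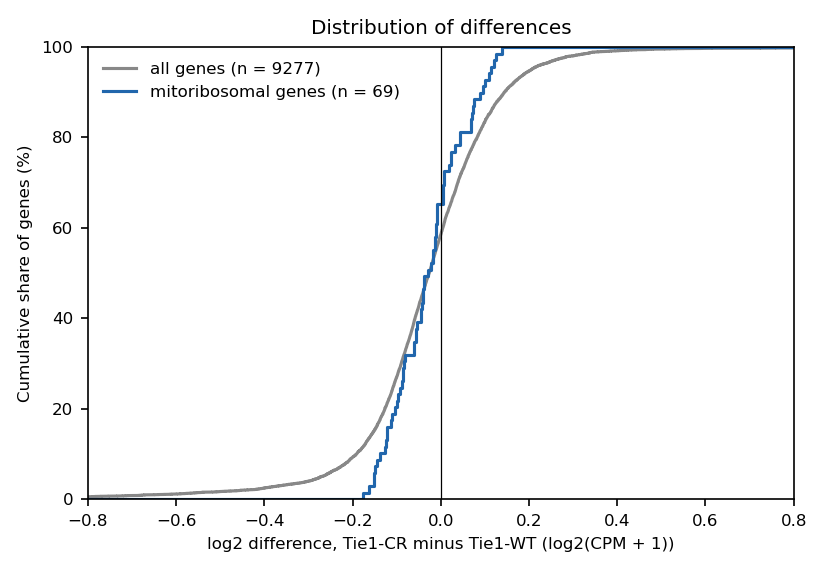
Cumulative share of genes against the log2 difference between Tie1-CR and Tie1-WT, for the 69 mitoribosomal genes and for all 9277 genes. The curves cross 50% at the same value, -0.03 log2, and that of the mitoribosomal genes ends at -0.18 and 0.14 log2.

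Libraries of the same genotype differed more in these genes than the genotypes did. For each library, the median deviation of the members from their own means over the 9 libraries was taken. In Tie1-WT it was -0.01, -0.06, 0.06 and 0.08 log2, and in Tie1-CR 0.09, -0.02, -0.11, -0.01 and -0.01 log2. The highest and the lowest library were the first and the third of Tie1-CR, and the range of Tie1-WT lay inside that of Tie1-CR. The same median over all genes stayed between -0.03 and 0.04 log2. Scaling to library size tends to hold that median near 0, so it cannot show whether the members spread unusually. Gene by gene, the median residual SD of the fit was 0.11 log2 for the members and 0.10 for all genes. The large and the small subunit genes had the same sign in 7 of 9 libraries. Summed over the members, Tie1-WT libraries held 1496 to 1661 CPM and Tie1-CR libraries 1456 to 1697 CPM. Summed markers of other cell types were highest in the fifth Tie1-CR library (1057 CPM, members' median -0.01 log2) and the fourth Tie1-WT library (867 CPM, 0.08 log2). The lowest and the highest library for the members had 783 and 627 CPM of them. With these markers as a covariate, the members' median difference was -0.02 log2. The sum covers 16 of 41 listed markers and no pan-leukocyte, neutrophil or lymphocyte marker. Whether other cells contribute to the spread between libraries was not tested.

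**Figure D4:**
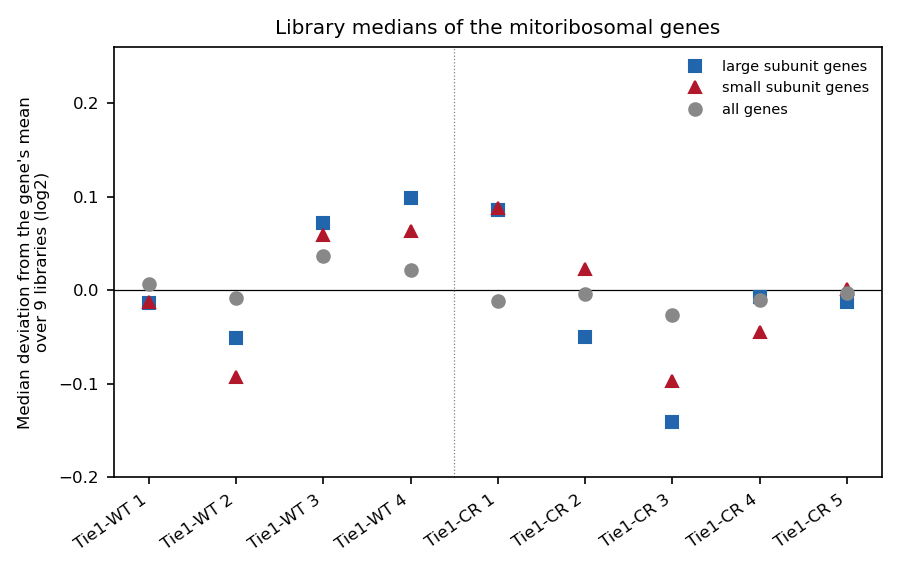
Median deviation of the large subunit genes (squares), the small subunit genes (triangles) and all genes (circles) from each gene's mean over 9 libraries, in log2, by library. The mitoribosomal genes are highest in the fourth Tie1-WT and first Tie1-CR libraries and lowest in the third Tie1-CR library, and the genotypes overlap.

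Levels of different genes were compared per kilobase of the main transcript in GENCODE M21. On that scale the members spread 40.1-fold, from 1.81 to 72.8 CPM per kb, although the mitoribosome holds most of its proteins in fixed proportions. The median was 14.6 CPM per kb for the large subunit and 12.8 for the small subunit, and 14.8 for all genes. Mrpl4 was the highest, at 72.8 CPM per kb (65.8 to 80.6 over the 9 libraries), and its lowest library lay above the highest of Mrps18a (55.9, from 49.7 to 62.6). Mrps18a overlapped with Mrpl33 (45.4, from 36.6 to 53.4), and Mrpl33 with Mrpl52 (38.7, from 32.1 to 44.5). The lowest in the large subunit were Mrpl19 (1.90, from 1.68 to 2.25) and Mrpl47 (2.71, from 2.24 to 3.08), which also overlapped.

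In the small subunit Mrps24 was the highest, at 38.3 CPM per kb (32.4 to 41.3), above every library of Mrps28 (27.8, from 22.3 to 31.8). Mrps28, Mrps21 (27.2) and Mrps15 (25.9) overlapped with each other. Mrps25 (1.81, from 1.52 to 2.39) was the lowest and Mrps35 (3.12, from 2.95 to 3.30) the next, without overlap. Both have annotated main transcripts that are long, at 6073 and 4162 bases, where the members' median is 1398 and that of all annotated genes 3195 bases. Mrps25, Mrpl19 and Mrpl47 also share exon bases with other genes, as given above. Their low levels, and with them the lower end of the spread, are therefore uncertain. The order depends on the length used. Over the union of all annotated exons, Mrpl4 stayed first in the large subunit, while Mrpl33 went from rank 3 to rank 40 and Mrps18a from 2 to 18. Mrps24 and Mrps28 exchanged ranks 1 and 2, Mrpl19 stayed last, and Mrps35 (1.5 CPM per kb) took the last place in the small subunit from Mrps25 (1.68).

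**Figure D5:**
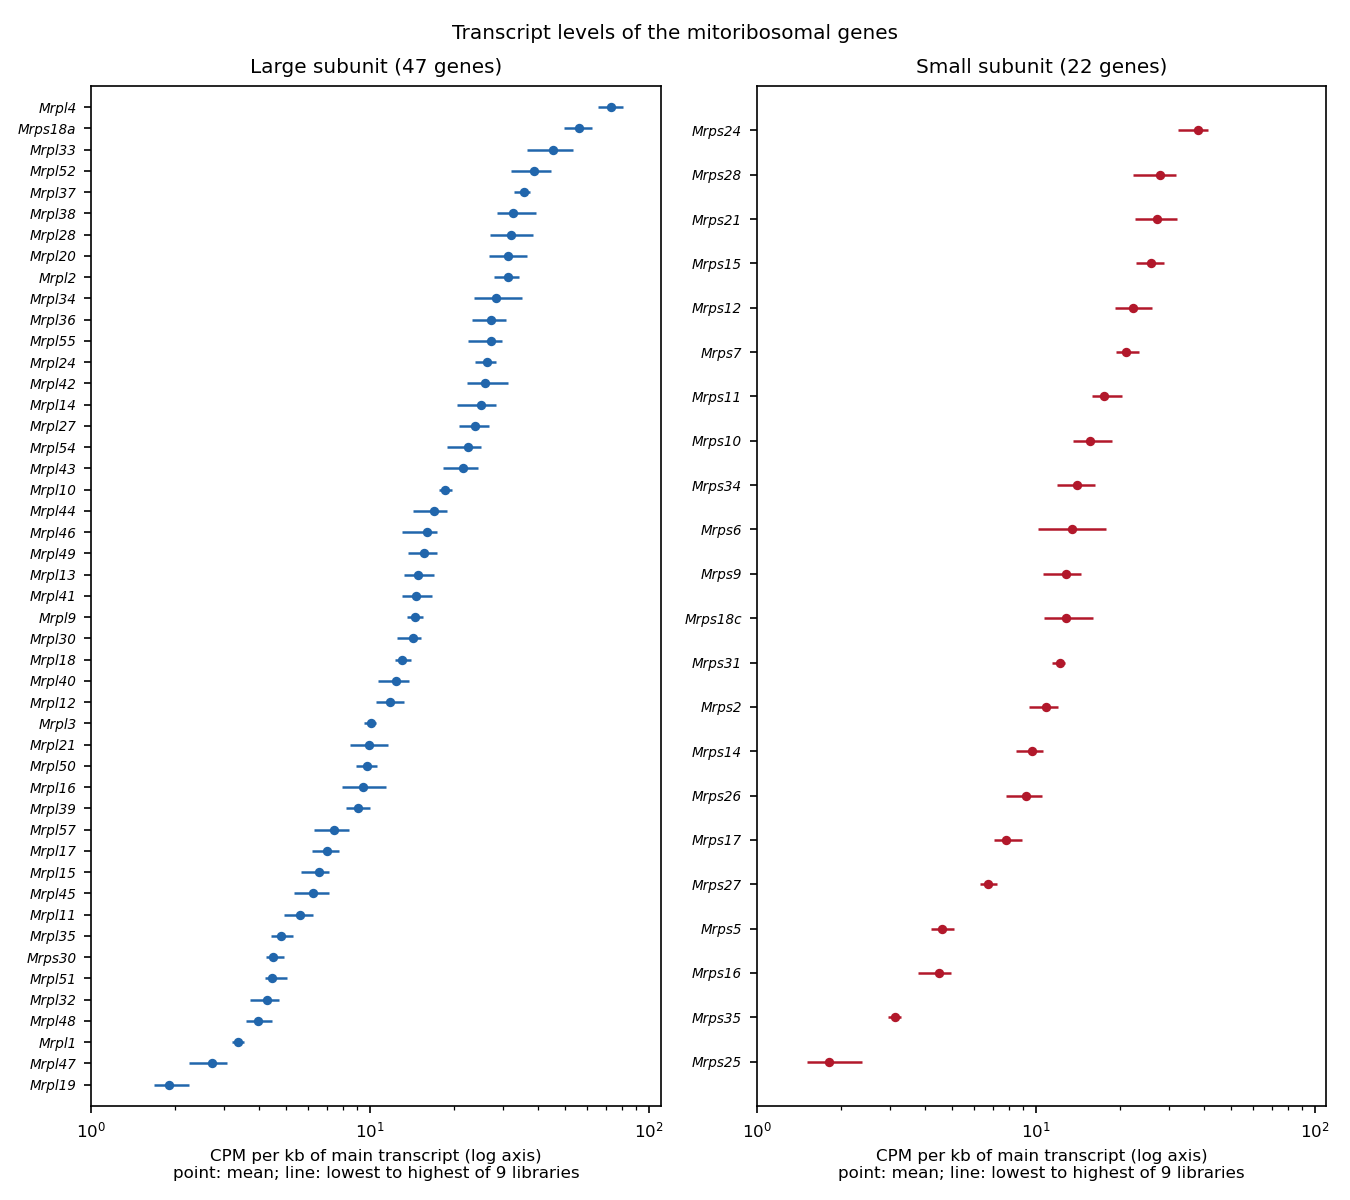
Level of each mitoribosomal gene as CPM per kb of its main transcript on a log axis (point, mean; line, lowest to highest of 9 libraries), for 47 large and 22 small subunit genes. Mrpl4 is highest at 72.8 and Mrps25 lowest at 1.81, and the line of a gene is short against the distance between the ends of the order.

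The members are scattered over 17 chromosomes, with 8 on chromosome 11 and 7 on chromosome 17. They often start beside another gene that runs the opposite way. For 32 of the 69 (46.4%), a protein-coding gene on the opposite strand starts within 1000 bases, against 17.2% of all protein-coding genes in the table. In 17 of them the starts lie apart, by a median of 83 bases, and in 15 the first parts of the genes overlap. Mrpl46 and Mrps11 on chromosome 7 (78775236 to 78783531 and 78783119 to 78792989 in GRCm38) are both members and overlap by their starts. Mrpl46 had 17.5, 19.2, 19.6 and 19.7 CPM in Tie1-WT, against 18.7, 16.8, 14.7, 18.0 and 18.9 CPM in Tie1-CR. Mrps11 had 18.1, 19.0, 21.5 and 18.4 CPM in Tie1-WT, against 19.3, 18.2, 17.8, 16.8 and 18.3 CPM in Tie1-CR. The differences were -0.12 and -0.09 log2, and both had overlapping genotypes.

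Of the 32 partners, 23 were in the table and 2 passed the threshold (limma), where 4.05% of all genes did. Both are named after their values were seen. Mtbp, the partner of Mrpl13 and a gene of replication origin firing, fell from 16.2 ± 1.17 to 12.5 ± 0.729 CPM, or by 0.35 log2 (adjusted p = 0.0252). Tmem63b, the partner of Mrpl14 and a cation channel gene, rose from 61.3 ± 2.35 to 71.4 ± 2.30 CPM, or by 0.22 log2 (adjusted p = 0.0259). The Mtbp call ended in 7 of 21 alternatives (-0.38 to -0.26 log2 over all 21): the replicate block, the GC and length correction with and without it, the covariate, and leaving out Tie1-WT replicate 1, 3 or 4 (limma adjusted p from 0.0562 to 0.162). The Tmem63b call ended in 7 of 22 (0.18 to 0.25 log2 over all 22): the block with and without that correction, the covariate, and leaving out Tie1-CR replicate 4 or any of Tie1-WT replicates 1, 2 and 3 (limma adjusted p from 0.0545 to 0.136). Their mitoribosomal neighbours did not pass, with -0.15 log2 for Mrpl13 and -0.08 log2 for Mrpl14. The exons of both pairs overlap in part, so some reads there cannot be assigned to a single gene. Sars2, the mitochondrial seryl-tRNA synthetase gene that faces Mrps12 at a distance of 172 bases, differed by -0.15 log2 (adjusted p = 0.319).

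Promoters of the members were searched for short motifs of factors that are known to drive nuclear genes for mitochondrial proteins. RefSeq promoters of GRCm38.p6, from 250 bases before to 50 after the start, were matched for 60 of the 69 members. The ETS motif CCGGAAG, which the factor GABP binds, was present on either strand in 17 of them (28.3%), against 20.1% of the genes in the table and 8.86% of all RefSeq promoters. The NRF1 motif GCATGCG was in 6 (10.0%), against 7.17% and 3.58%. All 6 were in the large subunit. As this motif nearly mirrors itself, matches on both strands can overlap. The YY1 motif AAGATGG was in 13 (21.7%), against 8.02% and 6.34%, and 9 of its 15 matches ended past the start site. These shares are descriptions of the sequence, and 31 of the 60 held none of the motifs.

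The following stretches show the motifs in their place before the start, with the matched letters in capitals. A match with its flanks lies clear of annotated exons in these 5 member promoters, and 1 match is shown for each. Mrpl10 carries the NRF1 motif (chr11:97041424-97041478, plus strand, 127 bases from the start). The others carry the ETS motif: Mrpl34 (chr8:71464865-71464919, plus strand, 30 bases), Mrpl43 (chr19:45006468-45006522, minus strand, 49 bases), Mrpl52 (chr14:54426838-54426892, plus strand, 40 bases, on the opposite strand) and Mrps27 (chr13:99344714-99344768, plus strand, 41 bases, on the opposite strand). Each is written from the 5′ end of the gene's own strand.
Mrpl10: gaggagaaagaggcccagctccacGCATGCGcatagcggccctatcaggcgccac
Mrpl34: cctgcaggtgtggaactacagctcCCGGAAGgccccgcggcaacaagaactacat
Mrpl43: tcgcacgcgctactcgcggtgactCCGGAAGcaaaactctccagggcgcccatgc
Mrpl52: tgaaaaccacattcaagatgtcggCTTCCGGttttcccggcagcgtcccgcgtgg
Mrps27: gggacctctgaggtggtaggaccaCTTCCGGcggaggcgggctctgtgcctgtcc

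Members with and without a motif lay at similar differences. The median was -0.02 log2 for the 17 with the ETS motif and -0.05 for the 43 without it. It was -0.04 for the 6 with the NRF1 motif and -0.03 for the 54 without, and -0.02 for the 13 with the YY1 motif and -0.04 for the 47 without. Of the genes printed above, Mrpl34 measured 16.9 ± 1.44 and 17.3 ± 2.53 CPM, Mrpl43 29.2 ± 3.39 and 31.0 ± 2.61 CPM, and Mrps27 12.8 ± 0.779 and 12.2 ± 0.515 CPM.

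Genes that work with the mitoribosome were taken from 6 lists, with 93 measured genes, of which 1 rose and 1 fell past the threshold (limma). Over all genes, 1.28% rose and 2.77% fell, so these counts are not above the background. Among 6 mitoribosomal proteins whose names do not follow the Mrp pattern, 0 passed and the median was -0.08 log2. Aurkaip1 had 59.5 ± 3.16 and 55.7 ± 3.25 CPM, and Ict1, a peptidyl-tRNA hydrolase built into the large subunit, 40.7 ± 3.12 and 41.7 ± 3.40 CPM. Ptcd3, a small subunit protein, had 34.2, 33.6, 33.1 and 32.8 CPM in Tie1-WT, against 29.1, 31.8, 31.2, 30.8 and 31.6 CPM in Tie1-CR. Its groups did not overlap, and the difference of -0.11 log2 did not pass (limma adjusted p = 0.185). Among the related genes, groups also did not overlap for Mrm1, Gtpbp6, Fastk, Polg and Nrf1 (higher in Tie1-CR). The same held for Gfm1 and Max (lower in Tie1-CR). Over all genes the share without overlap was 10.5%.

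Of 23 assembly factors, Gtpbp6, a GTPase of late mitoribosome assembly and recycling, rose. It measured 17.7, 17.7, 19.4 and 19.2 CPM in Tie1-WT, against 30.5, 25.0, 24.4, 23.8 and 23.6 CPM in Tie1-CR. Every Tie1-CR library lay above every Tie1-WT library, the first by a wide margin, and the difference was 0.43 log2 (SE 0.08; limma adjusted p = 0.0139). The call ended without Tie1-WT replicate 1 (0.42 log2, limma adjusted p = 0.0648), with a replicate block (0.46, 0.0509), with other cell type markers as a covariate (0.47, 0.0541) and with the block and the GC and length correction together (0.38, 0.0584). The median of the assembly factors was 0.06 log2, with 16 of 23 above 0.

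Of 12 translation factors and 19 mitochondrial tRNA synthetase genes, 0 passed, with medians of -0.05 and -0.02 log2. Gfm1, the elongation factor that moves the mitoribosome along the message, had 49.9 ± 2.34 and 46.1 ± 1.01 CPM (limma adjusted p = 0.176). Mrrf, the ribosome recycling factor, had 21.0 ± 1.56 and 18.0 ± 1.55 CPM (limma adjusted p = 0.133), and Letm1, an inner membrane ion exchanger that binds mitoribosomes, 90.7 ± 3.63 and 92.8 ± 5.76 CPM. Among the synthetase genes, Lars2 had the highest CPM, at 1200 ± 144 and 1360 ± 79.0 CPM (limma adjusted p = 0.239). The next by CPM was Iars2, far below it, with 68.0 ± 3.43 and 67.2 ± 3.44 CPM. These levels are not per kb of transcript. Whether all reads counted for Lars2 come from its messenger RNA was not tested, so its level is uncertain. The amidotransferase subunit Qrsl1 had 13.9 ± 1.59 and 11.7 ± 1.05 CPM.

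Of 22 genes for mitochondrial transcription, DNA upkeep and RNA handling, 0 passed, with a median of -0.03 log2. Polg, the catalytic subunit of the mitochondrial DNA polymerase, had 140 ± 5.75 and 155 ± 7.26 CPM (limma adjusted p = 0.111). Its accessory subunit Polg2 had 25.8, 25.1, 22.7 and 21.8 CPM in Tie1-WT, against 12.8, 23.6, 14.2, 17.6 and 13.6 CPM in Tie1-CR. The second Tie1-CR library lay within the Tie1-WT range and the others below it, a difference of -0.55 log2 (limma adjusted p = 0.0628). Without that library the difference was -0.69 log2 and passed (limma adjusted p = 0.00594), and it also passed with library weights (-0.63, 0.0152). Fastk, a kinase family member of mitochondrial RNA handling, had 87.0 ± 4.32 and 99.8 ± 6.06 CPM (limma adjusted p = 0.0729), and passed with TMM scaling (0.22 log2, 0.0407).

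Of 11 transcriptional regulators of mitochondrial biogenesis, Max, the dimer partner of Myc, fell by 0.31 log2, with means of 47.9 ± 1.13 CPM in Tie1-WT, against 38.7 ± 4.63 CPM for the Tie1-CR libraries (limma adjusted p = 0.0492). Its Tie1-WT libraries had 47.7, 49.4, 46.7 and 47.6 CPM and its Tie1-CR libraries 35.5, 34.3, 41.2, 36.9 and 45.5 CPM, without overlap. The call lies close to the threshold and ended in every fit that left out a library other than Tie1-CR replicate 5 (limma adjusted p from 0.0568 to 0.132). It also ended with TMM scaling, quantile normalization, library weights, the covariate and the GC and length correction, with and without the block (0.0631 to 0.124). In those fits its difference was -0.38 to -0.25 log2. Nrf1 and Gabpa, which bind the motifs described above, had 75.7 ± 1.81 and 83.1 ± 4.13 CPM, and 55.2 ± 2.83 and 52.1 ± 3.66 CPM, named for that role (limma adjusted p = 0.129 and 0.43).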

How the data were processed

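The values the authors deposited are called TPM by name but are CPM by their form: in each library 100% are whole multiples of 1 step, within 0.01 reads. Reads per library were taken from that step, and intervals from counting cover counting error only. Per the submitters' processing notes, reads were handled with STAR 2.7 on GRCm38.p6 (mm10). The sources used here do not give the read counter, its annotation or the filter on genes. Library construction used the SMARTer Ultra Low kit, per the labels' protocols.

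Values were used as log2(CPM + 1), with at least 1 CPM in at least 4 libraries (no gene removed). Differences on that scale, which are too small for low genes, were taken as Tie1-CR minus Tie1-WT with limma 3.58.1 in R 4.3.3 (two-sided, with a trended prior) over all 9277 genes, adjusted by Benjamini-Hochberg with a threshold of 0.05. The plan assumed TPM, and its test was kept for CPM. The members and lists were chosen with earlier results of these data known, so no test was made of a list. Named are members past the threshold, per subunit the 4 highest and 2 lowest per kb, the 4 smallest p and the 2 largest differences each way, and in each related list those past the threshold or else the 2 highest and 2 smallest p. A related gene that this rule names is not reported here. Lengths, GC content and exons came from GENCODE M21 (GRCm38).

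On simulated data for 9277 genes, limma recovered 83% of 100 genes changed by 0.5 log2 and 37% of 100 changed by 0.25 log2, with 9 false among 129 calls. Noise was drawn for each gene on its own, without shifts shared by a library. The changed genes were drawn from all genes (median 44.8 CPM, against 18.1 for the members). These rates are therefore not the sensitivity for the members. Alternatives covered the pseudocount, filter, scaling, variance model, GC and length, replicate block, a marker covariate, the threshold and each library left out. For Mtbp and Tmem63b they were run after seeing the data. Plots used matplotlib 3.10.9.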

Additional observations from a re-analysis of the deposited data

Results flagged for a closer look

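In groups of 4 or 5 libraries, 76 groups of values were examined for a library far from its neighbours, and 3 were found, where chance gives about 1 in 20 groups. Mrps18c measured 9.15 CPM in Tie1-CR replicate 1, against 7.10 to 7.58 CPM in the other Tie1-CR libraries. Gtpbp6 measured 30.5 CPM in Tie1-CR replicate 1, against 23.6 to 25.0 CPM in the others. Without that library its difference was 0.37 log2 and still passed. Iars2 measured 73.2 CPM in Tie1-WT replicate 1, against 66.0 to 66.6 CPM in the others.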

How the results depend on the processing

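The count of members past the threshold stayed at 0 in both directions in all 22 alternatives, and the medians of the members, the large and the small subunit each moved by less than their spread between libraries. Leaving out 1 library gave a members' median of -0.06 to 0.002 log2, a large subunit median of -0.06 to -0.005 and a small subunit median of -0.05 to 0.02. The related genes had 2 higher and 0 lower with TMM scaling, 2 and 2 at a threshold of 0.10, 1 and 0 with quantile normalization or the GC and length correction, 0 and 0 with the covariate or the block together with the correction, 0 and 1 with the replicate block alone, and 0 to 1 in each direction with 1 library left out. The cause was not tested.

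Differences of genes that did not pass changed sign as follows. With TMM scaling Mrps24 was at 0.007, Mrps35 at 0.016 and Iars2 at 0.008 log2. With quantile normalization Mrps24 was at 0.015, Mrps28 at 0.006, Mrps35 at 0.036 and Iars2 at 0.013. With library weights Mrps21 was at -0.024. After the GC and length correction Mrps24 was at 0.001, Mrps35 at 0.041 and Iars2 at 0.034, and with the block added Mrps35 was at 0.05, Letm1 at -0.007 and Iars2 at 0.05. With the covariate Mrps24 was at 0.002 and Iars2 at 0.011. With 1 library left out, the ranges were -0.034 to 0.017 for Mrps35, -0.041 to 0.018 for Iars2, -0.057 to 0.108 for Mrpl33, -0.03 to 0.096 for Mrpl52, -0.05 to 0.066 for Mrps21, -0.005 to 0.103 for Mrps15, -0.173 to 0.009 for Mrps25, -0.01 to 0.082 for Ict1, -0.146 to 0.017 for Mrps28 and -0.047 to 0.038 for Mrps24.

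With the replicate block the members' median was -0.04 log2, and calls over all genes went from 119 higher and 257 lower to 38 and 145. They were 182 and 190 with TMM scaling, 183 and 190 with quantile normalization, 120 and 176 with the GC and length correction (22 and 73 when blocked), 245 and 416 with library weights, 8 and 57 with the covariate and 314 and 592 at a threshold of 0.10. With 1 library left out they ran from 6 and 54 (without Tie1-WT replicate 1) to 110 and 245 (without Tie1-WT replicate 4). The labels give shared numbers only, and same-numbered libraries correlated at -0.14, 0.004, -0.06 and 0.19 across genes. The planned count tests on recovered reads were not run, so no call was compared with a count model. Genes under 10.0 CPM in every library cannot be assessed.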
